A study of Mus musculus with 6 samples.

Results

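Laminins, nidogens and integrins make up the molecular chain that ties a cell to the basement membrane, the sheet of extracellular matrix under the brain's coverings and around its vessels. A laminin is a cross-shaped trimer of one alpha, one beta and one gamma chain, and nidogens link the laminin network to type IV collagen. Integrins are surface receptors built of one alpha and one beta chain, which bind laminin, collagen, fibronectin and other ligands outside the cell and attach to actin through adaptor proteins such as talin inside it. In the brain, laminin networks lie at the pial surface and along vessels, where astrocyte endfeet, endothelial cells, mural cells and meningeal fibroblasts meet them, while neurons and glia carry integrins of their own.

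The genes described here were chosen by symbol, as every probe set of the array whose only annotated gene is a laminin chain (Lama, Lamb or Lamc with a number), Nid1 or Nid2, or begins with Itga or Itgb. These are 41 of 18194 genes with a probe set of their own and 88 of 45101 probe sets, with 19 probe sets for laminins, 4 for nidogens and 65 for Itg symbols. Of the 41 genes, 12 encode laminin chains or nidogens and 25 encode integrin chains. The other 4 (Itgb1bp1, Itgb1bp2, Itgb3bp and Itgbl1) match by name but encode no integrin chain.

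RNA came from cortex of the mouse line ES691, in which S100a10 regulatory sequence on a bacterial artificial chromosome drives a tagged ribosome. The line was moved from FVB to C57BL/6 by 3 to 5 generations of backcrossing and received no treatment, and all samples of both groups come from it. Translating ribosome affinity purification (TRAP) pulled down the tagged ribosomes with their mRNA, which gave the 3 TRAP samples, and the 3 samples of the other group are whole cortex RNA that the descriptions and series text call unbound and the titles call input. The series text states that the driver also labels some cells that are not neurons, and the published probe set list it recommends was not used here. The labels call the samples biological replicates, and state neither ages nor how many animals gave each sample. The sample-to-sample spread behind the p-values may therefore be technical in part, and limma also draws on the spread of other genes.

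The arrays differed between the groups in more than these genes. Median intensity over all probe sets was 31.4 to 31.8 on the TRAP arrays and 42.4 to 43.1 on the unbound arrays, and over the 12070 genes tested the log2 fold change had a median of -0.21. S100a10, the driver gene, was 5.87-fold higher in TRAP RNA. Of 15 markers of cortical pyramidal neurons 6 were higher and 7 lower, while 17 of 18 tested markers of meningeal fibroblasts were higher. Precision is limited throughout by having 3 arrays a group.

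Among the members, TRAP RNA held more Nid1, Lama1, Lamb2, Lama4, Itgbl1 and Itgb1bp1 and less Itga8, Itgb8, Itgav, Itga4 and Itga6 than unbound RNA. A gene was tested when its mean intensity reached 50 in at least 1 group, and 18 of the 41 genes did. Of these 18, 8 were higher and 7 lower in TRAP RNA at a limma adjusted p under 0.05, against 23.3% higher, 45.7% lower and 69.0% in either direction among all genes tested. Lama1 no longer passed this threshold with values under 50 raised to 50, nor did Itga6 after centring arrays on their median over all probe sets. The median log2 fold change of the 18 was 0.23. At least 2-fold differences were found for 5 higher and 3 lower members, with 7.29% and 13.3% of all genes as background, and limma's test against a 2-fold change (treat) called 4 higher and 2 lower, with 4.53% and 6.56% as background. Nid1, Lama1, Lama4 and Itgbl1 passed the level limit through their TRAP mean alone and Itga8 through its unbound mean alone, so these 5 had to differ and the counts are a description. For a difference between TRAP and unbound RNA, which cells were sampled, RNA per cell and binding to ribosomes cannot be told apart.

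**Figure D1:**
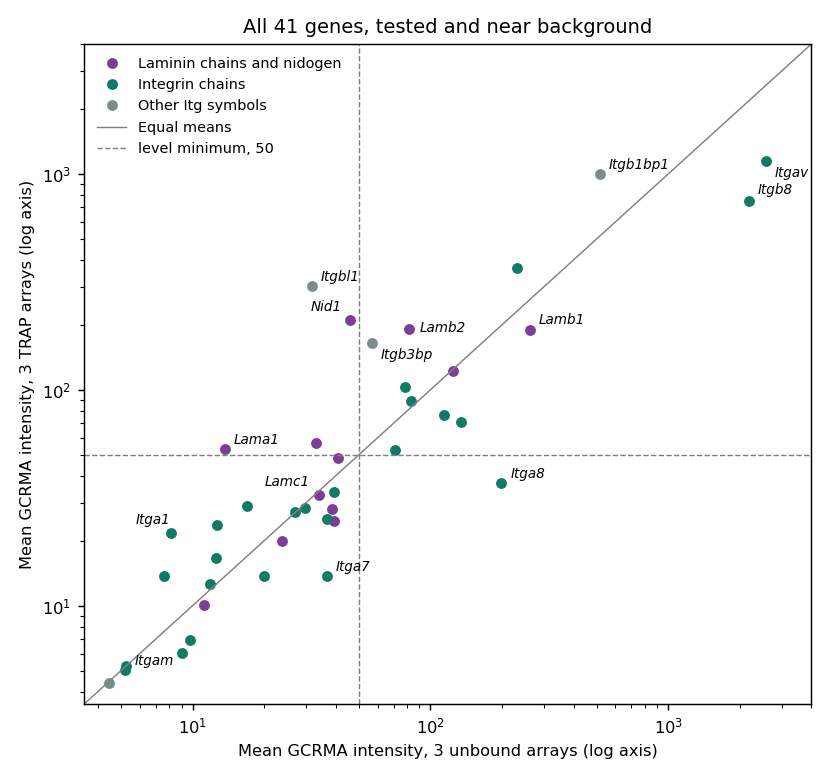
Mean intensity of all 41 genes on the 3 TRAP arrays (vertical, log axis) against the 3 unbound arrays (horizontal, log axis), 1 point per gene, with dashed lines at the level minimum of 50 and a solid line of equal means. The 23 genes at the lower left lie under 50 in both groups, and Itgbl1, Nid1 and Lama1 stand above the line of equal means while Itga8, Itgb8 and Itgav stand below it.

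**Figure D2:**
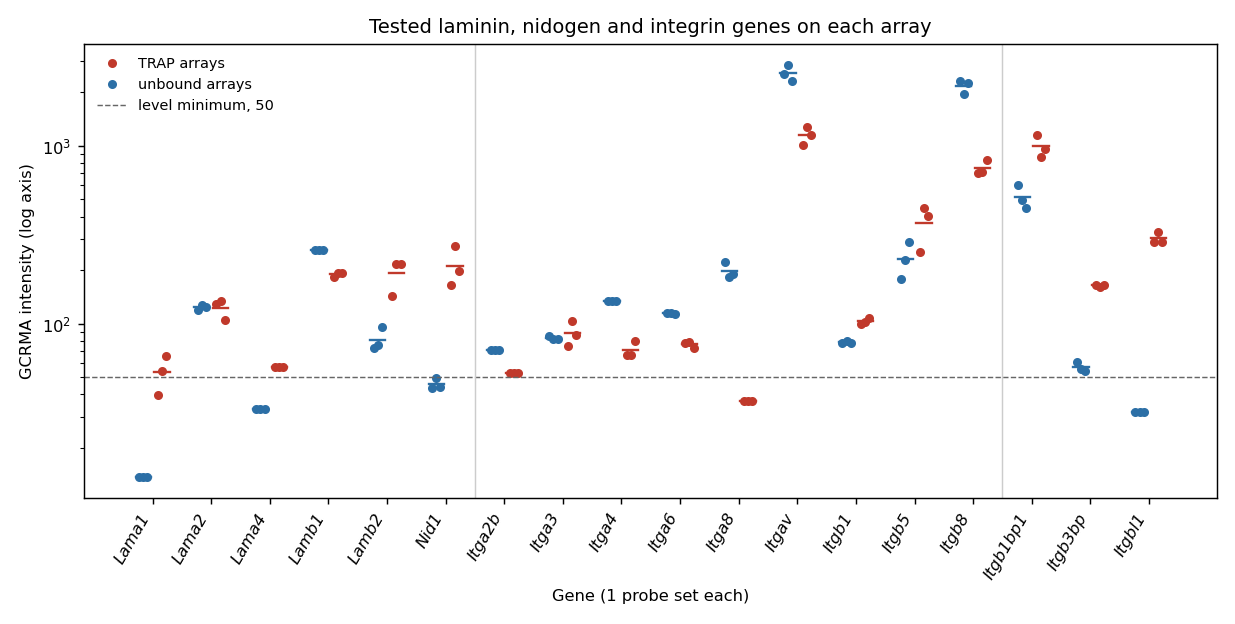
Intensity on each of the 6 arrays (log axis) for the 18 tested genes, with points for arrays, short bars for group means and a dashed line at 50. The groups do not overlap for 15 of the 18 genes, with 75.5% of all genes tested as background, and they overlap for Lama2, Itga3 and Itgb5.

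The promoters of 4 members are shown here as examples from both directions, Nid1 and Itgbl1 higher and Itga8 and Itgb8 lower in TRAP RNA, each past the test against 2-fold in the fit to all arrays. Each run is the 250 bases before the gene's start, 5′ to 3′ on the gene's strand, from RefSeq on GRCm38.p6, where 27 of the 41 members had an entry. Capitals mark a GC box, the letters GGGCGG or their reverse complement CCGCCC.
Nid1, chr13:13437352-13437601, plus strand: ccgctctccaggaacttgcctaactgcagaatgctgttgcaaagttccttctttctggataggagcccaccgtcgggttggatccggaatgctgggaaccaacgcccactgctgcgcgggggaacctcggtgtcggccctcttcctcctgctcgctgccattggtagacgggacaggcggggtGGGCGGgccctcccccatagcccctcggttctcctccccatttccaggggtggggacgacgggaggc
Itgbl1, chr14:123659890-123660139, plus strand: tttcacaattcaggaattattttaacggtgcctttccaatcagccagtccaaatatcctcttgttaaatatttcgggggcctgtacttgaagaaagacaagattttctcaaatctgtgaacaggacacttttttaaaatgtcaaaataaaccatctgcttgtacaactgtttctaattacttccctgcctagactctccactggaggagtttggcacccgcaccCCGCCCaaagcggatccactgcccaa
Itga8, chr2:12301945-12302194, minus strand: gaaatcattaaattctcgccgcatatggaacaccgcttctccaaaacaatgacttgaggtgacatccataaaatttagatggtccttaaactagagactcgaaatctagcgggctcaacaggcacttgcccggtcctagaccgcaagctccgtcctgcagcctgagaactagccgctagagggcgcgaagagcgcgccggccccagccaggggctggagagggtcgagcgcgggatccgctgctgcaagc
Itgb8, chr12:119238277-119238526, minus strand: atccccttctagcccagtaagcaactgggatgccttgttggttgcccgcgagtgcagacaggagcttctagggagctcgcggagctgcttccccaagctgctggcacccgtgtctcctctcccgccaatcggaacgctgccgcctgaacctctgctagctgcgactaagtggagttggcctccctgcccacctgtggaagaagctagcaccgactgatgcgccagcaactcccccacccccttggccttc
A GC box lay 62 to 67 bases before the start in Nid1 and 21 to 26 bases before it in Itgbl1, and the letters were found in neither of the other 2 windows. Of 32851 promoter windows of this length, 32.7% hold a GC box on either strand. TATAAA (12.4% of all windows, both strands) and the AP-1 letters TGANTCA (6.75%, the same on both strands) were in none of these 4. G and C made up 64.4% of the Nid1 window, 62.4% of Itgb8, 56.4% of Itga8 and 42.4% of Itgbl1, with a median of 52.4% over all windows. No array value bears on these windows, so the letters are a description only.

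Laminin chains and nidogens went both ways. Of 12 genes, 6 were tested, with 4 higher (Lama1, Lama4, Lamb2 and Nid1), 1 lower by the probe set used (Lamb1) and Lama2 not called, where 23.3% of all genes tested were higher and 45.7% lower. Lama1, Lama4 and Nid1 were tested only because of their TRAP mean, and with both group means at 50 or more 1 was higher (Lamb2) and 1 lower (Lamb1). Over all 12 genes, by 1 probe set each, the log2 mean was higher in TRAP RNA for 5 and lower for 7. The lower ones include Lamb1, whose probe sets disagreed, and Lama2 at -0.02. Also among them are Lama3, Lama5, Lamc1, Lamc3 and Nid2, all under 50 in both groups, as is Lamb3 among the higher ones. Lama3, Lama5 and Lamc3 each had another probe set under 50 with the opposite sign, so this count gives no balance of directions. Nid1 encodes nidogen-1, which joins laminin to collagen IV. Its intensity was 164, 274 and 197 on the TRAP arrays and 43.7, 49.8 and 44.2 on the unbound arrays, so each TRAP array lay above every unbound array. The difference was 4.51-fold (log2 2.17, SE 0.20, limma adjusted p = 4.6e-04), or 4.13-fold with values under 50 raised to 50, and Nid1 passed the test against 2-fold (adjusted p = 0.011), which it did not without unbound replicate 1 or without unbound replicate 3 (adjusted p = 0.057 in each). The other Nid1 probe sets lay under 50 in both groups, with log2 differences of 0.04 and 0.18.

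Lamb2 encodes the laminin beta2 chain, found in vascular, pial and synaptic basement membranes. It measured 144, 216 and 216 on the TRAP arrays against 72.8, 75.5 and 96.0 on the unbound arrays. TRAP replicate 1 was the lowest of its group and still above all unbound values. The difference was 2.33-fold (log2 1.22, SE 0.21, adjusted p = 0.0043), and it did not pass the test against 2-fold (adjusted p = 0.97).

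Lama1 encodes the laminin alpha1 chain, a component of the pial basement membrane. It was listed at 39.7, 54.5 and 65.4 on the TRAP arrays and at 13.7 on each unbound array, by 3.81-fold (log2 1.93, SE 0.19, adjusted p = 5.6e-04). The test against 2-fold was passed (adjusted p = 0.021) but not without TRAP replicate 2 (0.085) or any 1 unbound array (0.087 in each), and without TRAP replicate 3 Lama1 fell under the level minimum and was not tested. Its TRAP mean of 53.2 lies close to the level minimum, and with values under 50 raised to 50 the difference was 1.13-fold and no longer called (log2 0.17, adjusted p = 0.20). Lama4, the alpha chain of vascular laminin, was 57.0 on all TRAP arrays and 33.2 on all unbound arrays (log2 0.78, adjusted p = 1.1e-05). Because neither group of Lama4 shows any spread, its p-value rests on the spread of other genes alone. Its difference was 1.72-fold, or 1.14-fold with the raised values. Another Lama4 probe set, under 50 in both groups, had a log2 difference of -0.15.

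Lama2, the alpha chain whose loss causes a congenital muscular dystrophy, measured 128, 135 and 105 on the TRAP arrays and 120.1, 128 and 124 on the unbound arrays. The ranges overlap, the log2 fold change was -0.02 (95% interval -0.29 to 0.24, adjusted p = 0.84), and the sign turned under each other scaling, with 0.41 and a call (adjusted p = 0.017) when each array was centred on its median over all probe sets.

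Lamb1, the beta1 chain of the most widespread laminins, could not be given a direction, because its probe sets disagreed. The probe set with the higher level, of the _s_at type that can match several transcripts, read 183, 194 and 194 in TRAP RNA and 261 on each unbound array (log2 -0.46, SE 0.04, adjusted p = 2.4e-04). Another probe set read 108, 102 and 119 against 73.8 on each unbound array, a log2 difference of 0.57 in the opposite direction (SE 0.06, adjusted p = 7.8e-04 over all probe sets). The other 2 probe sets lay under 50 in both groups.

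No gamma chain was measurable above the level minimum. Lamc1, which encodes the gamma1 chain shared by most laminins, was 32.4 on all TRAP arrays and 34.0 on all unbound arrays. Lamc3 averaged 19.9 and 23.7, Lama3 28.1 and 38.4, Lama5 24.8 and 39.2, and Lamb3 48.1 and 40.9, TRAP first. Nid2, the second nidogen, averaged 10.1 in TRAP and 11.2 in unbound RNA. These 6 genes were not tested, and a level under 50 on this array does not show that the transcript is absent.

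Markers of meningeal fibroblasts were mostly higher in TRAP RNA, where 23.3% of all genes tested were higher. Their summed intensity ranged from 47990 to 54230 over the TRAP arrays and from 2289 to 2677 over the unbound arrays, with 17 of 18 tested markers higher and 1 lower, and only Col1a1 of 19 under 50 in both groups. Foxd1, a forkhead transcription factor gene, was 53.1-fold higher and the collagen gene Col1a2 37.8-fold higher. Among pericyte and smooth muscle markers 6 of 9 tested were higher and 2 lower, with 7 of 16 under 50 in both groups, and their sum ranged from 6129 to 7651 in TRAP and from 3070 to 3380 in unbound RNA. Among endothelial markers 3 of 9 tested were higher (Itm2a, Abcb1a and Abcg2) and 4 lower (Slco1c1, Sox17, Cldn5 and Esam). Their sum was 5891 to 6613 against 2349 to 2529 (1963 to 2345 against 1878 to 2063 without Itm2a, left out after seeing the data). Of the 17 endothelial markers in the table, 8 lay under 50 in both groups (Cdh5, Pecam1, Tek, Tie1, Flt1, Kdr, Erg and Emcn). The part of each cell type in the laminin and nidogen differences was not tested.

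**Figure D3:**
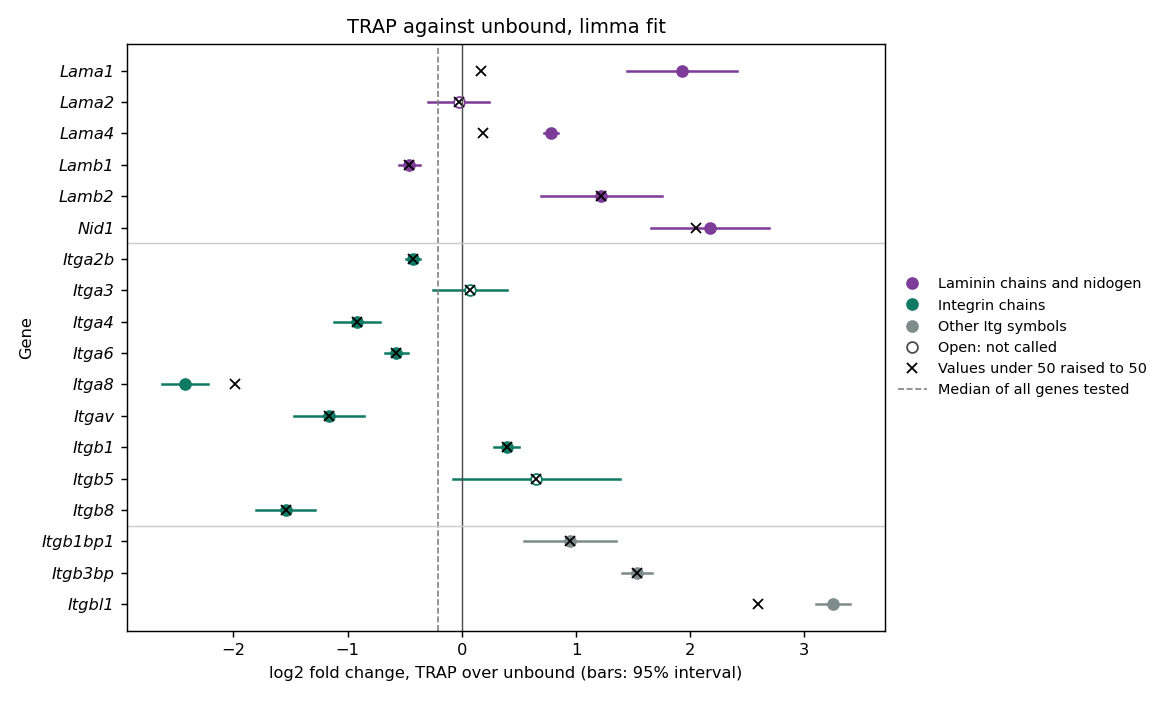
Log2 fold change of TRAP over unbound RNA (horizontal) for the 18 tested genes (vertical), with 95% intervals as bars, open circles for genes not called, crosses for the value after raising intensities under 50 to 50, and a dashed line at the median of all genes. Lama1 moves from 1.93 to 0.17 when low values are raised, while Nid1 stays at 2.05, and the signs of Itga2b and Lama2 turn when arrays are centred on their median over all probe sets.

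Of 25 integrin chains, 9 were tested, with 6 lower in TRAP RNA (Itga2b, Itga4, Itga6, Itga8, Itgav and Itgb8), 1 higher (Itgb1) and 2 not called (Itga3 and Itgb5), where 45.7% of all genes tested were lower and 23.3% higher. Centring arrays on their median over all probe sets gave 4 lower and 3 higher, and quantile normalisation 5 lower and 3 higher. The median log2 fold change of the 9 was -0.57, with -0.21 for all genes. Itgav, Itgb8, Itga8 and Itga4 were lower under each scaling tried, whereas Itga6 lost its call and Itga2b turned to 0.0058 after centring arrays on their median over all probe sets.

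Itgb8 encodes the beta8 chain, which pairs with alphav alone and, as alphav-beta8, activates latent TGF-beta. It read 705, 709 and 834 on the TRAP arrays and 2323, 1954 and 2269 on the unbound arrays. The ranges are far apart, with a 2.91-fold lower level in TRAP RNA (log2 -1.54, SE 0.10, adjusted p = 1.4e-04). The test against 2-fold was passed (adjusted p = 0.016), but not without TRAP replicate 1 (0.070), TRAP replicate 2 (0.065), unbound replicate 1 (0.067) or unbound replicate 3 (0.073), nor after centring arrays on their median over all probe sets (0.90) or over the genes tested (0.069, an alternative chosen after seeing the data).

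Itgav encodes the alphav chain, the common partner of several beta chains and a receptor for ligands with an RGD sequence. Its intensity was 1010.3, 1281 and 1158 in TRAP RNA and 2547, 2863 and 2319 in unbound RNA. All TRAP values lay under all unbound values, by 2.24-fold (log2 -1.17, SE 0.12, adjusted p = 6.9e-04), and the test against 2-fold was not passed (adjusted p = 0.70). The other 4 Itgav probe sets lay under 50 in both groups.

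Itga8, whose product pairs with beta1 and binds nephronectin, was 36.9 on all TRAP arrays against 223, 184 and 190.1 on the unbound arrays. The TRAP value is below the level minimum and identical on the arrays, so the size of the difference is imprecise. It was 5.37-fold lower (log2 -2.42, SE 0.08, adjusted p = 1.3e-05), or 3.96-fold lower with values under 50 raised to 50, and passed the test against 2-fold (adjusted p = 1.6e-04). Npnt, which encodes nephronectin and was chosen after its values were seen, was lower as well, at 195 ± 83.1 (SD, n = 3) against 556 ± 56.6 (SD, n = 3), log2 -1.59 (SE 0.33, adjusted p = 0.0085).

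The remaining RGD-type alpha chains were low. Itga2b, the platelet fibrinogen receptor chain, read 52.6 on all TRAP arrays and 70.7 on all unbound arrays (log2 -0.43, adjusted p = 7.9e-05), and as for Lama4 the p-value rests on the spread of other genes. It was not called after quantile normalisation (log2 -0.09, adjusted p = 0.15). The 6 platelet and megakaryocyte markers in the table lay under 50 in both groups. Itga5, the fibronectin receptor chain, averaged 12.6 in TRAP and 11.8 in unbound RNA and was not tested.

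Among laminin-binding alpha chains, Itga6 was lower and Itga3 was not called by the probe set used. Itga6, which pairs with beta1 or beta4, read 78.4, 79.1 and 73.0 in TRAP RNA and 114, 114 and 114 in unbound RNA, with no overlap (1.49-fold, log2 -0.57, SE 0.04, adjusted p = 1.8e-04). Its other kept probe set went the same way (log2 -0.95, SE 0.31, adjusted p = 0.041 over all probe sets). Centring on the array median left a log2 fold change of -0.14 that was not called (adjusted p = 0.056). Itga3 read 74.8, 104 and 86.5 against 85.5, 82.2 and 82.2, overlapping ranges with a log2 fold change of 0.07 (95% interval -0.25 to 0.39, adjusted p = 0.63), but it was called higher after array-median centring (0.51, adjusted p = 0.013) and quantile normalisation (0.38, adjusted p = 0.036). A second kept Itga3 probe set, of the _s_at type, read 59.8, 66.4 and 66.4 against 57.1, 55.1 and 55.1, without overlap. It was called higher (log2 0.20, SE 0.05, adjusted p = 0.02 over all probe sets), so the Itga3 result depends on the probe set. Itga7, the laminin receptor chain of muscle, averaged 13.7 in TRAP and 36.7 in unbound RNA and was not tested.

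Itga4, a receptor chain for VCAM-1 and fibronectin, read 67.0, 67.0 and 79.8 in TRAP RNA and 134 on each unbound array. This was 1.89-fold lower (log2 -0.92, SE 0.08, adjusted p = 3.4e-04). The other 4 Itga4 probe sets lay under 50 in both groups, as did Itga9, which averaged 25.3 in TRAP and 36.6 in unbound RNA.

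Of the 3 beta chains tested, Itgb1 was higher and Itgb5 was not called. Itgb1, the partner of most alpha chains including all collagen and most laminin receptors, read 99.4, 102 and 108 in TRAP RNA and 78.0, 79.7 and 78.0 in unbound RNA. The 1.31-fold difference was called (log2 0.39, SE 0.04, adjusted p = 7.7e-04). A second kept Itgb1 probe set gave a log2 difference of -0.14 (SE 0.12, adjusted p = 0.33), and the mean of both was not called (log2 0.13, adjusted p = 0.19), so the Itgb1 call depends on the probe set.

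Itgb5, another partner of alphav and a vitronectin receptor chain, read 254, 446 and 405 in TRAP RNA against 179, 228 and 289.6 in unbound RNA, with TRAP replicate 1 inside the unbound range. Its log2 fold change was 0.65 (SE 0.29, adjusted p = 0.094). With the replicate number as a block it was called higher (adjusted p = 0.020), as it was without TRAP replicate 1 (log2 0.90, adjusted p = 0.033) and under each of the 3 other scalings (adjusted p from 0.015 to 0.028). All 4 Itgb5 probe sets had a positive log2 difference, from 0.34 to 0.65, and 1 of them was called (0.56, adjusted p = 0.014 over all probe sets).

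**Figure D4:**
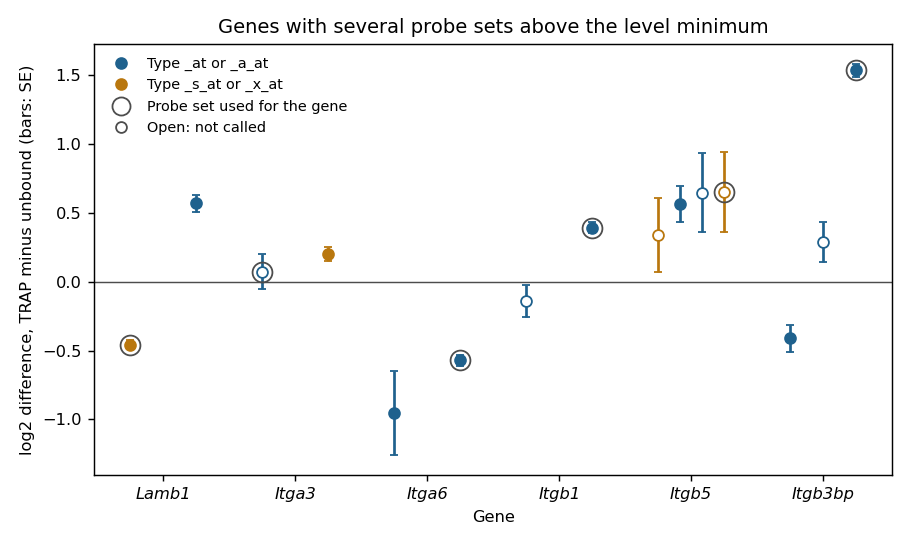
Log2 difference of TRAP minus unbound RNA (vertical, bars SE) for every probe set above the level minimum of the 6 member genes with several such probe sets (horizontal), with filled points for calls and a ring around the probe set used for the gene. Lamb1 and Itgb3bp have calls on both sides of 0, and Itgb5, Itga6 and Itga3 keep 1 sign. Itgb1 has 1 call above 0 and 1 probe set below it that was not called. For Itga3 the probe set used was not called and the other was called.

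Probe sets of 1 gene gave opposite calls for Lamb1 and Itgb3bp among the 6 members with several kept probe sets, with 10.1% of 5152 such genes as background. In the fit over all kept probe sets 68.3% were called.

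Collagen-binding and leukocyte integrins were near background. The collagen receptor chains Itga1, Itga2 and Itga10 averaged 21.8, 6.92 and 13.7 in TRAP RNA and 8.16, 9.76 and 7.57 in unbound RNA. The leukocyte chains Itgam, Itgax and Itgal averaged 5.03, 5.23 and 16.6 in TRAP RNA and 5.21, 5.23 and 12.5 in unbound RNA, and their beta partner Itgb2 28.2 and 29.8. Itgae averaged 29.1 and 17.0, Itgb2l 23.6 and 12.7 and Itgb7 27.1 and 26.9. Itgb3, Itgb4 and Itgb6 averaged 13.7, 33.5 and 6.07 in TRAP RNA and 20.1, 39.3 and 9.01 in unbound RNA. Of the 23 members under 50 in both groups, the log2 mean was higher in TRAP RNA for 8 and lower for 15, and none was tested.

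Most tested markers of glia and interneurons were lower in TRAP RNA, where 45.7% of all genes tested were lower. Of 15 astrocyte markers 9 were lower and 4 higher, and their summed intensity ranged from 21220 to 25660 in TRAP RNA and from 33460 to 44100 in unbound RNA. For oligodendrocyte markers 13 of 15 were lower, with sums of 10500 to 16420 against 60360 to 66820. For interneuron markers 10 of 13 tested were lower and the sums were 23520 to 29030 against 45480 to 49020, with Erbb4 under 50 in both groups. Microglial markers, from cells that carry the leukocyte chains, were lower for 14 of 16 tested and higher for 1, with sums of 1864 to 2717 against 3911 to 5400 and Siglech and Trem2 under 50 in both groups. Border macrophage and other leukocyte markers were higher for 2 and lower for 3 of 6 tested, with 10 of 16 under 50 in both groups and sums of 685.1 to 713.8 against 531.3 to 580.9. For choroid plexus and ependyma 5 of 7 tested were higher and 1 lower, with sums of 1773 to 2131 against 522.9 to 3325. The upper unbound value comes from Ttr on unbound replicate 3 (2886, against 159 and 76.3 on the other unbound arrays), and without Ttr, left out after seeing the data, the sums were 1737 to 1957 against 438.9 to 462.3. The part of these cell types in the integrin values was not tested.

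Of the 3 tested genes that share the Itg symbol without being integrin chains, Itgbl1 and Itgb1bp1 were higher in TRAP RNA and Itgb3bp had probe sets called in opposite directions. Itgbl1 encodes a secreted protein with EGF-like repeats resembling those of integrin beta chains. It read 289, 329 and 289 in TRAP RNA and 31.7 on each unbound array, so the groups lie far apart. The difference, the largest fold among the 18 tested members, was 9.51-fold (log2 3.25, SE 0.06, adjusted p = 2.5e-06), or 6.04-fold with values under 50 raised to 50, and it passed the test against 2-fold (adjusted p = 1.3e-05).

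Itgb1bp1 encodes ICAP-1, which binds the cytoplasmic tail of integrin beta1 and the protein KRIT1. It read 1148, 870.4 and 965 in TRAP RNA and 604, 499 and 445 in unbound RNA, without overlap, by 1.93-fold (log2 0.95, SE 0.16, adjusted p = 0.0039). Itgb3bp encodes a nuclear protein of the centromere that also binds nuclear receptors. Its probe set with the highest level read 166, 162 and 166 against 60.6, 55.8 and 54.0 (2.90-fold, log2 1.54, SE 0.05, adjusted p = 1.4e-05), whereas another was lower in TRAP RNA (log2 -0.41, SE 0.10, adjusted p = 0.016 over all probe sets) and the third was not called (0.29, adjusted p = 0.13), so Itgb3bp, counted as higher above, has no settled direction. Itgb1bp2, the muscle protein melusin, lay near 4.4 in both groups.

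Genes that work with laminins and integrins went both ways. Of 17 tested basement membrane partners 6 were higher and 7 lower, with a median log2 fold change of -0.24. Higher were Col4a5, a minor collagen IV chain (log2 3.25, adjusted p = 4.9e-04, or 1.62 with values under 50 raised to 50), the fibulin genes Fbln1 (2.81, adjusted p = 2.2e-04) and Fbln5 (2.04, adjusted p = 5.7e-06), and Sparc, a collagen-binding matrix protein gene, at 2111 ± 391 (SD, n = 3) against 327 ± 53.6. The main partners of laminin and nidogen, picked for their role after values were seen, did not follow Nid1. Col4a1, the main collagen IV chain, was lower (log2 -1.57, SE 0.06, adjusted p = 2.1e-05), Hspg2, which encodes perlecan, was slightly lower (-0.24, adjusted p = 0.028), Agrn, which encodes agrin, was lower (-0.69, adjusted p = 0.033), and Col4a2 was at -0.31 (adjusted p = 0.13).

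Other laminin receptors were lower in 7 and higher in 3 of 15 tested, with a median of -0.39. Dmd, which encodes dystrophin, the link between dystroglycan and actin, was lower (log2 -1.68, SE 0.07, adjusted p = 3.0e-05), and so was the adhesion gene Mcam (-3.09, adjusted p = 4.5e-06), although its unbound mean was only 51.4 and the value was -0.06 with values under 50 raised to 50. Cd151, a tetraspanin that binds laminin-receptor integrins, was higher at 2342 ± 638 (SD, n = 3) against 642 ± 123 (log2 1.85, adjusted p = 0.0015), and the syndecan gene Sdc1 was higher at low intensity (1.67, adjusted p = 4.2e-04, or 0.11 with the raised values). Dag1, which encodes dystroglycan and was picked for its role after values were seen, was at -0.39 (SE 0.19, adjusted p = 0.12).

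Integrin ligands outside the basement membrane were higher in 10 and lower in 8 of 21 tested, with a median of 0.33. The largest differences were in Col1a2 (log2 5.24, adjusted p = 3.9e-05), Cdh1 (4.01, adjusted p = 2.9e-05), the epithelial cadherin bound by the Itgae product, Col3a1 (3.80, adjusted p = 3.4e-04) and Vtn, which encodes vitronectin (3.48, adjusted p = 1.3e-04). Col1a2 and Col3a1 also stand in the fibroblast marker list and Vtn in the pericyte list, so these values are not separate evidence.

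Cytoplasmic partners split nearly evenly, with 15 higher and 18 lower of 38 tested and a median of -0.11. Tns2, a tensin gene (log2 3.40, adjusted p = 4.2e-06), Kank2 (2.52, adjusted p = 9.5e-05) and Sorbs3, which encodes vinexin (1.84, adjusted p = 2.3e-04), were higher, and the parvin gene Parvb was lower (-2.03, adjusted p = 8.7e-07). With values under 50 raised to 50, Tns2 was at 2.21 and Parvb at -1.36. Adaptors named after values were seen also differed in sign. Tln1 (talin-1) at 0.69 (adjusted p = 0.0055) and Ilk (integrin-linked kinase) at 0.66 (adjusted p = 0.0015) were higher, and Fermt2 (kindlin-2) at -0.82 (adjusted p = 0.0029) was lower.

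Tetraspanins and other lateral partners were higher in 5 and lower in 3 of 15 tested, with a median of 0.27. Tspan8 was higher (log2 5.84, adjusted p = 3.8e-06, or 3.18 with values under 50 raised to 50), as was Tspan4 (1.94, adjusted p = 5.8e-05), while Tspan2, a gene of myelinating cells, was lower (-3.08, adjusted p = 3.4e-05). The shares of all genes tested are the 23.3% higher and 45.7% lower given above, and no list was tested as a set.

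Scaling moved the balance of calls among the members. After centring each array on its median over all probe sets, 11 were higher and 4 lower, and after quantile normalisation 10 and 6. Among all genes these were 5713 higher and 2692 lower, and 4113 and 3983, against 2812 and 5517 without rescaling. The all-gene median moved from -0.21 to 0.23 and 0.0037 on the log2 scale. Repeated values are a second limit, since 11 of the 18 tested members held an identical value on at least 1 pair of arrays of a group, with 50.6% of all tested genes as background. In 2 of the 18 (11.1%), Lama4 and Itga2b, all 3 values were identical within both groups, with 1.81% of all tested genes as background.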

How the data were processed

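RNA of 3 TRAP and 3 unbound samples was measured on mouse Affymetrix arrays, after 2-cycle amplification from 15 ng, per the labels' protocols. The deposited values are linear intensities per probe set, which the authors normalised with GCRMA, per the submitters' processing notes. The sources used here do not say whether the groups were normalised together. Median intensity was 31.4 to 31.8 on the TRAP arrays and 42.4 to 43.1 on the unbound arrays. Whether separate normalisation of the groups adds to the fold changes was not tested. Many intensities repeat exactly within a group. Of the 88 member probe sets 86.4% held such a repeat, with 73.8% of all probe sets as background. All 3 values were identical within both groups for 18.2% of them, with 6.46% of all probe sets as background. No member probe set had the same value on a TRAP and an unbound array. The reason was not tested, and repeats make the within-group spread behind the p-values smaller. No deposited column was left without a sample.

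Intensities were put on the log2 scale with no pseudocount. Probe sets with a group mean of at least 50 in 1 group or more were kept (22591, without 64 control probe sets). Among kept probe sets with 1 gene symbol, each of 12070 genes was represented by its probe set of highest mean intensity across the 6 arrays. TRAP was compared with unbound RNA by limma 3.58.1 (lmFit, eBayes and treat against 2-fold, in R 4.3.3), adjusting by Benjamini-Hochberg over every gene tested, and calls were made under 0.05. Probe set p-values come from the same fit over all kept probe sets, whatever their number of gene symbols. On simulated data for this comparison (12070 genes, 200 changed) the fit recovered 81% of 2-fold and 97% of 4-fold changes, and 9.64% of its calls were false, above the nominal rate. The simulated noise was independent and normal, without repeated values or an offset between groups, whereas 69.0% of genes were called in the data. These rates may therefore not hold for the calls reported here.

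The members and gene lists were chosen with earlier results of these data known. Named are all members, up to 4 called genes with the largest change and no overlap from each other list, and S100a10; other genes are said to be chosen after their values were seen. Deviations of samples with the same replicate number correlated at 0.496, 0.456 and 0.367, so the labels' numbers were taken as pairs for the blocked alternative. Alternatives changed the filter, scaling, low values, probe set choice, variance model, repeated values, pairing and the arrays included.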

Additional observations from a re-analysis of the deposited data

How the results depend on the processing

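Of 289 recomputed values of single members, 267 kept their direction and their side of the threshold, 5 lost a call, 9 gained one, 4 turned with a call in either fit and 4 turned with none. Turned with a call were Itga2b at 0.0058 and Lama2 at 0.408 with arrays centred on their median, and Lamb1 at 0.0562 with the mean of a gene's kept probe sets and at 0.57 with probe sets other than _s_at and _x_at preferred. Turned with no call were Lama2 at 0.186 (centring on the genes tested), 0.257 (quantile normalisation) and 0.0844 (without TRAP replicate 3), and Itga3 at -0.0499 (without TRAP replicate 2). The cause was not tested.

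Requiring both group means to reach 50 left 13 members, with 4 higher, 1 laminin or nidogen higher, 2 at least 2-fold higher (Lamb2 and Itgb3bp), 1 past the 2-fold test in each direction and a median of -0.0248. Past that test were Itgb8, lower, and Itgb3bp, higher, which encodes no integrin chain and has no settled direction. With no filter (41 members) 15 were higher and 13 lower, laminins and nidogens were lower in 3, integrin chains were higher in 7 and lower in 10, all genes were 4797 higher and 8354 lower, and the median was -0.0248. Centring arrays on their median gave 4 members lower, 0 laminins or nidogens lower, 3 integrin chains higher, 8 members at least 2-fold higher, 1 past the 2-fold test lower, 24 partner genes lower (43 without it), 5713 higher and 2692 lower genes in all, and a median of 0.665. Centring on the genes tested, chosen after seeing the data, gave 2 integrin chains higher, 1 member past the 2-fold test lower and a median of 0.444, and quantile normalisation gave 3 integrin chains higher and a median of 0.537. With the mean of kept probe sets, 0 integrin chains were higher and 0 laminins or nidogens lower. With other than _s_at and _x_at probe sets preferred these were 2 and 0, with a median of 0.478. Probe sets without repeated values left 7 members, with 4 higher and 2 lower, 2 laminins or nidogens higher and 0 lower, 2 integrin chains lower, 2 members at least 2-fold higher, 1 past the 2-fold test in each direction, 20 partner genes higher and 19 lower, 1372 higher and 2734 lower genes in all, and a median of 0.653.

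With the replicate number as a block, 2 integrin chains were higher in place of 1, through Itgb5 (adjusted p = 0.020), and no other member's call changed. Leaving out 1 array at a time gave 1 to 2 integrin chains higher, 2 to 4 members past the 2-fold test higher and 1 to 2 lower, and a median of 0.0844 to 0.303. Low intensities and repeated values limit the precision of genes near 50.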

Other observations

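Within each array the log2 ratio of Itgb5 to Itgb8, both partners of alphav, averaged -1.06 ± 0.40 (SD, n = 3) in TRAP RNA and -3.26 ± 0.39 (SD, n = 3) in unbound RNA. The ratio of the laminin beta chain genes Lamb2 and Lamb1 averaged -0.01 ± 0.29 (SD, n = 3) and -1.69 ± 0.22 (SD, n = 3). Both ratios were higher on all TRAP arrays than on all unbound arrays, with an exact two-sided permutation p = 0.1 for each, the smallest that 3 against 3 arrays allow. The ratios were chosen after values were seen, they hold each array's scaling constant, and that of Lamb2 to Lamb1 depends on the Lamb1 probe set.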
